A study of Mus musculus with 14 samples.

Results

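Cadherins and the protocadherins that lie outside the clustered protocadherin loci were followed across mouse spinal motoneurons, spinal interneurons and stem cell-derived progenitors. Members were the genes whose symbol is Cdh followed by a number, or Pcdh followed by a number with or without an x, with 1 entry kept per symbol (the one with the highest mean). This gave 35 genes of 23523 gene entries. By textbook classification, 5 were type I cadherins, 13 type II cadherins, 5 other cadherins, 4 δ1-protocadherins, 5 δ2-protocadherins and 3 other protocadherins.

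Cadherins are calcium-dependent adhesion molecules of the cell surface. Their extracellular repeats bind cadherins on neighbouring cells, and the cytoplasmic tail of the classical type I and type II proteins binds β-catenin and p120 catenin, which connect them to actin through α-catenin. In the spinal cord, N-cadherin (Cdh2) is the broadly expressed type I cadherin of neural tissue. Type II cadherins are carried in different combinations by different motor pools, the groups of motoneurons that serve single muscles, and take part in sorting these pools from each other. Protocadherins of the δ groups adhere more weakly, bind no β-catenin, and are known for roles in cell sorting, axon growth and synapse formation.

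All samples were of mouse. Motoneurons were isolated by their green fluorescence from embryonic spinal cords (E12.5) that carried the reporter Hb9::gfp, which is driven by the promoter of the motoneuron gene Hb9 (Mnx1). There were 6 wild-type (WT) libraries, and 2 libraries had the background mutation 218DKO (DKO), the double knockout of the genes for microRNA-218 (miR-218), a small RNA that represses messages in motoneurons. V1, V2a and V3 interneurons of the same stage, wild type in background, were sorted as tdTomato-positive cells, with 1 library each. In them the reporter Rosa26:LSL:tdTomato was switched on by En1:cre in V1, by Sim1:cre in V3 and by another Cre driver in V2a, so that it marks every cell that has had the driver active, including descendants. Wild-type mouse embryonic stem (mES) cells, differentiated with retinoic acid and a hedgehog agonist, gave 2 libraries at day 4. One held tdTomato-positive motoneuron progenitors (Olig2:cre;Rosa26:LSL:tdTomato), and the other held unsorted neural progenitors with no reporter. Of the 14 labelled samples 13 are used, and floor plate cells were not analysed here. Whether embryos were pooled, and whether each replicate is another animal, is not in the labels, so the p-values rest on a spread between libraries that may be technical.

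Levels were deposited as a signal scaled by transcript length and between libraries, and those below are in this unit unless a log2 difference is named. Approximate depth, in M reads, was 11.7 to 28.0 for WT and 7.34 and 15.4 for DKO motoneurons, 16.1 to 17.4 for interneuron libraries and 23.1 to 25.8 for mES libraries. In a transcript of 2000 bases, 3 reads correspond to a signal between 0.994 (WT replicate 1) and 3.94 (DKO replicate 1), and levels near or below this carry little information. Motoneuron markers followed the labels of the embryonic libraries. The summed level of 6 such markers was 7934 to 9379 in WT motoneurons, 9013 and 9636 with the double knockout, 44.5 in V1, 1564 in V2a and 131 in V3. In V2a this sum came from Chat (309) and Slc18a3, with Mnx1 at 7.46. WT replicates 2, 3 and 4 stood apart from replicates 1, 5 and 6 by a high level of the ribosomal RNA entry Rn45s (10197 to 27943, against 644 to 4275). Of the 35 members, 13 had levels in replicates 2, 3 and 4 that did not overlap those in replicates 1, 5 and 6. They include Cdh5 and Cdh16, which were near the level of a few reads. The share over all genes was not computed, so this count shows nothing particular to the members. The miR-218 genes themselves were not analysed here, so the genotype label was not checked by them.

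Of the members, 28 had a mean signal of at least 1 in WT motoneurons, 24 at least 10, 19 at least 100 and 6 at least 500. Cdh2 was the most abundant at 1592 ± 211 (SD, n = 6). Next came the δ2-protocadherin Pcdh10 at 954 ± 85.6, the δ1-protocadherin Pcdh7 at 863 ± 177, the membrane-anchored T-cadherin Cdh13 at 841 ± 124 and the type II cadherin Cdh6 at 815 ± 121, and within these 4, neighbours in the order did not differ beyond their spread. Cdh22, a type II cadherin, followed at 507 ± 121. The members below 1 were Cdh1, Cdh3, Cdh16, Cdh17, Cdh19, Cdh26 and Pcdh12, and Cdh19, known from Schwann cell precursors, was listed at 0 in every motoneuron library. Of these, Cdh16, Cdh17, Cdh26 and Pcdh12 were at or below 3.61 in all 13 libraries and Cdh19 at or below 0.356. Pcdh20 was low as well, at 7.02 to 13.3 in WT and 8.48 and 8.11 in DKO. Summed over their classes, the 13 type II cadherins reached 2880 ± 263 in WT motoneurons and the 5 type I cadherins 1716 ± 206, nearly all of it Cdh2. The heat map of all members shows this order and the 4 sets of libraries side by side.

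**Figure D1:**
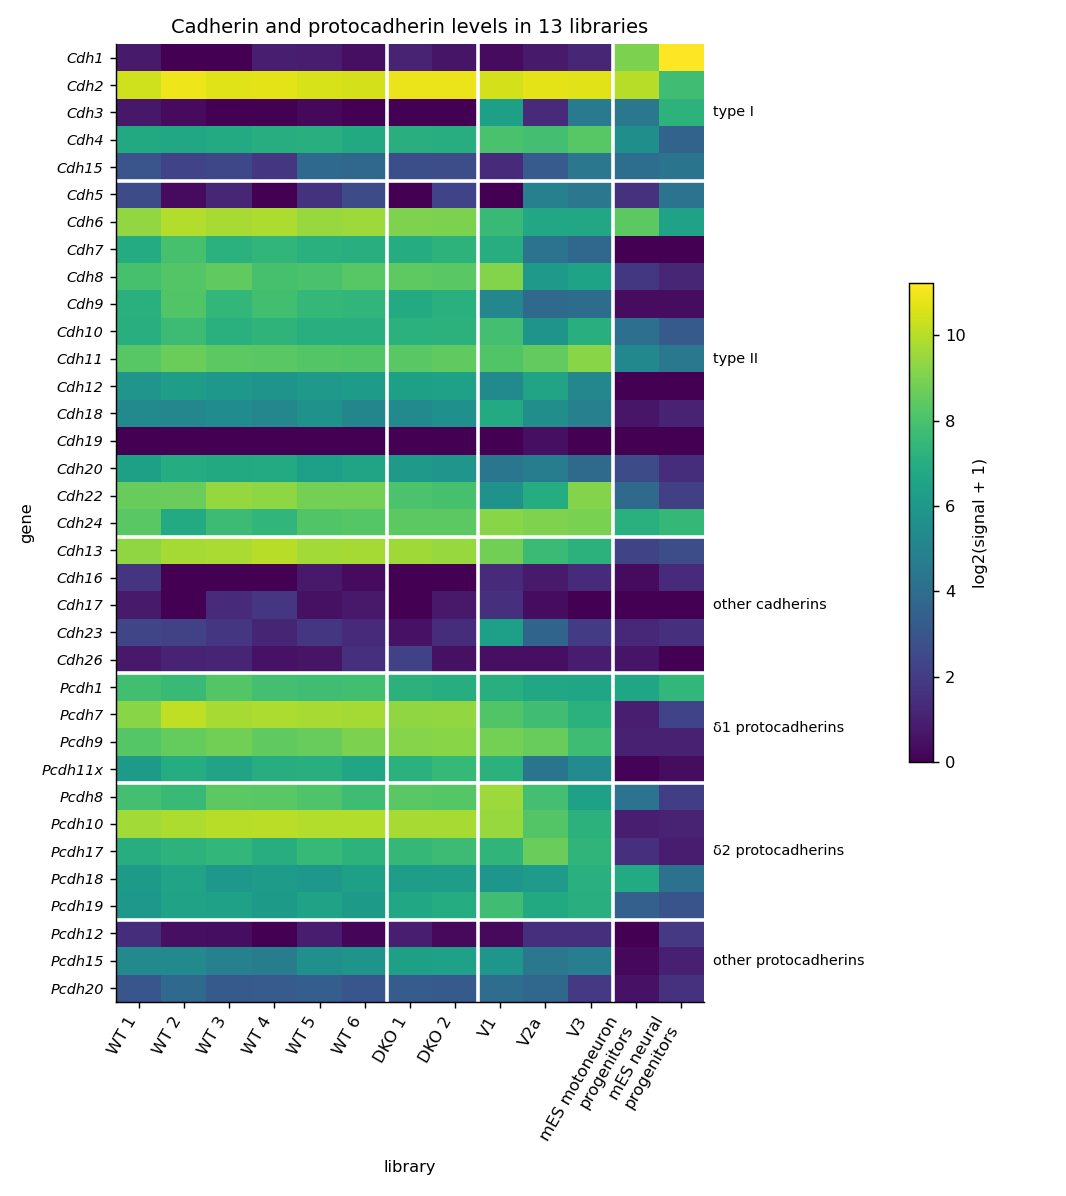
Level of each of the 35 members as log2(signal + 1) (colour) in each of the 13 libraries (columns), with rows grouped by class and white lines between classes and between sets of libraries. Cdh2 is high in all 11 embryonic libraries, while most type II cadherins and δ-protocadherins are low in both mES columns, where Cdh1 is high.

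MicroRNAs repress messages mainly through sites in the 3′ UTR that pair with their seed, so the microRNA and its candidate sites in the members are shown first. Mature miR-218-5p is made from Mir218-1 (chr5:48223966-48223986, plus strand, GRCm38.p6, RefSeq) and Mir218-2 (chr11:35616840-35616860, plus strand), and both give the same 21 bases, printed with the seed, bases 2 to 8, in capitals.
miR-218-5p: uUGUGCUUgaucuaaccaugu
Annotated 3′ UTRs (GENCODE M21, GRCm38, found for 34 of 35 members, all but Cdh18) were searched on the sense strand for letters that pair with the seed. These were AAGCACAA, called 8mer, AAGCACA, called 7mer-m8, and AGCACAA, called 7mer-A1, and each gene was placed in its strongest class, since the 8mer contains both shorter motifs. A match in any annotated transcript of a gene counted, so not every transcript of that gene need hold it. Cdh8 and Pcdh10 have 4 transcript entries each, Pcdh15 has 14, and Pcdh8 and Pcdh19 have 2 each. Which of these entries hold the match was not listed. A match was found in 9 members and none in 25. The 7 windows below show each match in capitals with its flanking bases, in the direction of the message, because these letters define the groups of members compared further on.
Cdh8: gtttttactacAAGCACAAacatctggaag
Pcdh8: ctgtcacttatAAGCACAgtaataaagga
Pcdh10: gtgtgtttccaAAGCACAgaaactcttgg
Pcdh15: ttaaaactgcaAAGCACAggggaaatatg
Pcdh17: ggcaccaagacAAGCACAttttgtttgta
Pcdh19: agggcttgtaaAAGCACAggtttgtagag
Cdh4: taatcgtcaacAGCACAAatattttgtat
Cdh8 holds the only 8mer, at chr8:99029371-99029400 on the minus strand. The 7mer-m8 windows lie at chr14:79766795-79766823 (Pcdh8, minus strand), chr3:45421386-45421414 (Pcdh10, plus), chr10:74648554-74648582 (Pcdh15, plus), chr14:84538280-84538308 (Pcdh17, plus) and chrX:133584574-133584602 (Pcdh19, minus). The 7mer-A1 of Cdh4 lies at chr2:179899120-179899148 (plus). The Pcdh17 match is past the end of the gene in RefSeq (84537565) and within it in GENCODE M21. Cdh2 (7mer-A1) and Pcdh12 (7mer-m8) complete the 9.

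The first comparison asks which members differed between motoneurons with and without miR-218. Of 29 members that passed the filter of a mean signal of at least 1, 1 was higher and 3 were lower in DKO at an adjusted p below 0.05 (limma-trend, Benjamini-Hochberg over all genes). Pcdh15, a protocadherin known from the tip links of hair cells, rose 2.12-fold. Cdh22 and Cdh6, both type II cadherins, fell to 0.498 and 0.64 of their WT level, and Pcdh1, a δ1-protocadherin, fell to 0.591. Over all 16260 genes tested, 3.22% were higher, 4.77% lower and 7.99% either, beside 3.45% higher and 10.3% lower among the members. The median log2 difference was 0.05 over members and 0.0015 over all genes. DKO and WT libraries did not overlap for 10 of the 29, and for 30.7% of all genes tested.

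Cdh22 (chr2:165111501-165234924, GRCm38.p6 as for all gene positions below) had WT levels from 394 through a median of 467 to 688, or about 1400 to 2450 reads. Its DKO levels were 259 and 246. Both DKO libraries lay below every WT library, with a log2 difference of -0.97 (SE 0.20, adjusted p = 0.018). Cdh6 (chr15:13028699-13176407) ranged in WT from 664 through 807 to 978 and was 532 and 511 in DKO. The groups did not overlap, with a log2 difference of -0.63 (SE 0.15, adjusted p = 0.027).

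Pcdh1 (chr18:38185914-38212048) had WT levels of 190.3 to 296 with a median of 225, against 147 and 127 in DKO. Again both DKO libraries were the lowest, by -0.75 on the log2 scale (SE 0.16, adjusted p = 0.0185). Pcdh15 (chr10:73096277-74649831) went the other way. Its WT levels ran from 26.2 through 39.7 to 54.3, and both DKO levels, 81.5 and 85.1, lay above them (log2 difference 1.11, SE 0.27, adjusted p = 0.0347).

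Each of these 4 calls ended when either DKO library was left out, with adjusted p from 0.118 to 0.239, while the differences kept their sign. Cdh6 also lost its call without WT replicate 4 (adjusted p = 0.0512) and Pcdh15 without WT replicate 3 (adjusted p = 0.053). With quantile normalization the split was 3 higher and 3 lower, with Cdh2 and Pcdh9 added among the higher. Cdh6 and Pcdh15 are among the members that differed between WT replicates 2, 3 and 4 (860 to 978 and 26.2 to 39.2) and replicates 1, 5 and 6 (664 to 754 and 40.2 to 54.3), and both stayed called against either set alone.

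Several further members were apart between the genotypes without passing the threshold. Being apart is not particular to the members, since it held for 10 of 29 of them and for 30.7% of all genes tested. Cdh20, the type II cadherin first described as MN-cadherin, had WT levels of 80.3, 102 and 124 (lowest, median, highest) and DKO levels of 63.9 and 57.1, a log2 difference of -0.71 (SE 0.20, adjusted p = 0.0542). Pcdh9, a δ1-protocadherin, had WT levels of 309, 386 and 509 and DKO levels of 574 and 596 (log2 difference 0.56, SE 0.17, adjusted p = 0.0625). In both genes the DKO libraries lay outside the WT range. The δ2-protocadherin Pcdh19, whose human counterpart is an epilepsy gene, stood at 61.8 to 86.4 in WT and at 103 and 120.3 in DKO (log2 difference 0.56, adjusted p = 0.0817). Pcdh11x, the X-linked δ1-protocadherin, was 68.5 to 135 in WT and 141 and 181 in DKO (log2 difference 0.61, adjusted p = 0.143). Cdh12 and Cdh24 were the remaining members without overlap, with log2 differences of 0.36 and 0.59 and adjusted p of 0.227 and 0.289. Cdh24 was 115 to 208 in WT replicates 2, 3 and 4 and 290.1 to 324 in replicates 1, 5 and 6. Its DKO levels, 333 and 332, lay just above the second set. Cdh20 also differed between these WT sets, at 112 to 124 and 80.3 to 92.9, and its DKO levels lay below both. The panels of single libraries show 7 of these genes.

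**Figure D2:**
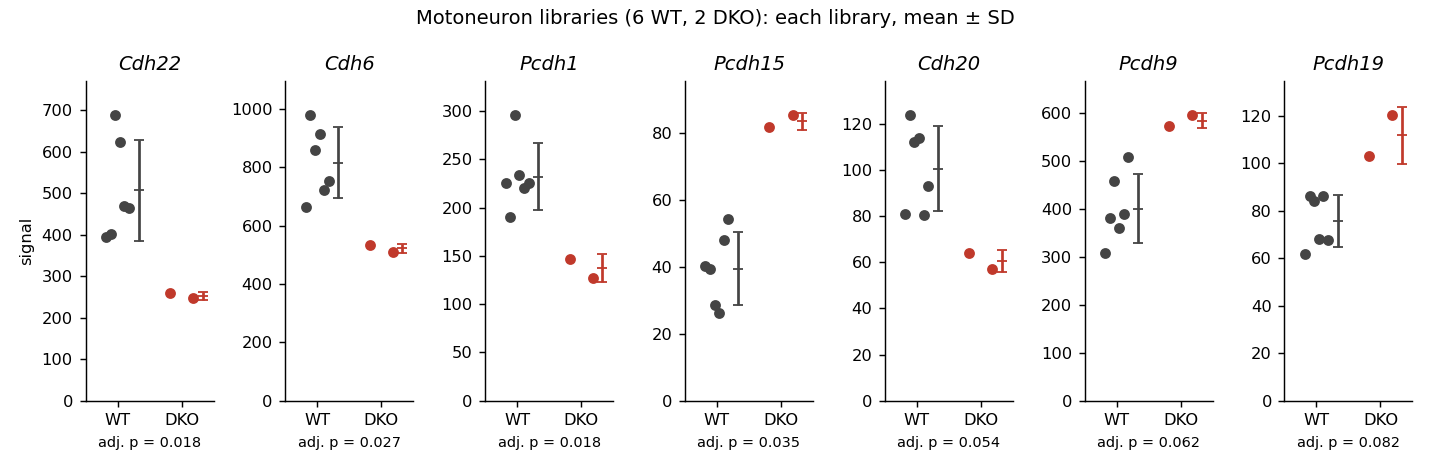
Signal (vertical axes from 0, scaled per gene) of 7 members in the 6 WT (grey) and 2 DKO (red) motoneuron libraries, each point 1 library, with mean ± SD beside them and the adjusted p below. Cdh22, Cdh6, Pcdh1 and Cdh20 sit lower and Pcdh15, Pcdh9 and Pcdh19 higher in both DKO libraries, and Cdh22, Cdh6, Pcdh1 and Pcdh15 are the ones with an adjusted p below 0.05.

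Type I cadherins stayed below the threshold. Cdh2 was 1348 to 1943 in WT (median 1553) and 1908 and 1865 in DKO, both within the WT range (log2 difference 0.26, SE 0.13, adjusted p = 0.251). Cdh4, or R-cadherin, was 105 to 129 in WT and 135 and 127 in DKO (log2 difference 0.17, SE 0.14, adjusted p = 0.434). The muscle cadherin Cdh15 was 2.45 to 13.2 in WT and 5.51 and 5.27 in DKO. With limma-trend, 0 of 3 tested type I cadherins passed the adjusted threshold and 0 had an unadjusted p below 0.05, although Cdh2 was called higher under quantile normalization, with array quality weights and against WT replicates 1, 5 and 6 alone.

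Among the members with a miR-218 match, 8 were tested and 7 of them had a positive DKO minus WT difference, with a median of 0.28. Of the 20 tested members without a match, 7 were positive, with a median of -0.16. Pcdh15, with its 7mer-m8, was the 1 member called higher, while Cdh22, Cdh6 and Pcdh1, the 3 called lower, hold none of the 3 motifs in their annotated 3′ UTRs. The 8mer gene Cdh8 had a log2 difference of 0.23 (SE 0.15, adjusted p = 0.35), and Pcdh10, the exception in sign, one of -0.15 (SE 0.11, adjusted p = 0.425). The same split over all genes tested gave a median of 0.16 for 2923 genes with a match. Of these, 1898 had a positive difference, and 293 were called higher and 77 lower. For the 11765 genes without a match the median was -0.05, with 5223 positive, 181 called higher and 678 called lower. These are descriptions of annotated letters and were not tested on the members.

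**Figure D3:**
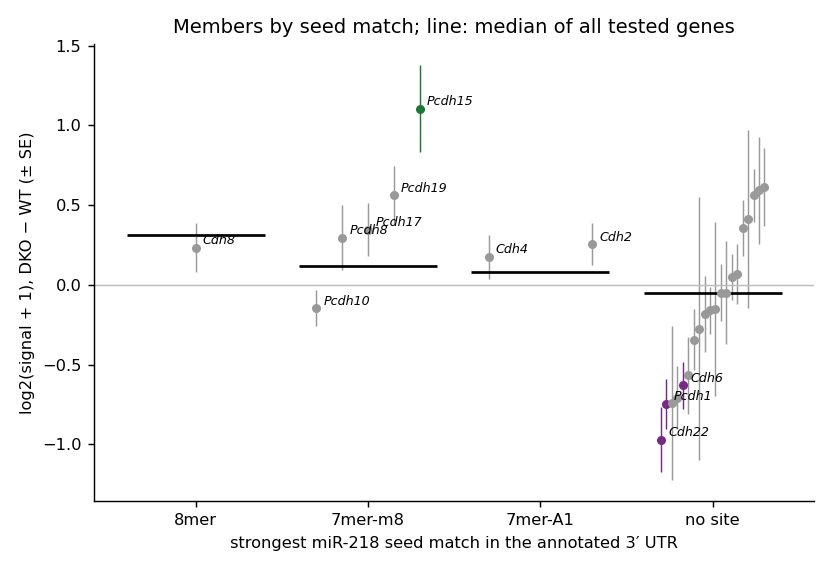
DKO minus WT difference in log2(signal + 1) with its SE for the 28 tested members that have an annotated 3′ UTR, by their strongest miR-218 match, in green where called higher, purple where called lower and grey otherwise. Black lines are the medians of all genes tested in that class, from 0.31 for 8mers to -0.05 without a match, and 7 of 8 members with a match lie above 0.

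Some markers of other cells also differed in level between the genotypes. The summed level of 4 V1 markers was 970 and 976 in DKO against 341 to 724 in WT. This sum was carried by Foxp2 and Foxd3 (382 and 384 in DKO), and the other genes of the list did not rise. En1 was 2.05 and 1.96 in DKO against 2.73 to 40.8 in WT, and Pax2 was 10.4 and 15.7 against 14.6 to 130. Lhx3, a gene of V2a interneurons that motoneurons of the medial column also use, was 469.6 and 388 in DKO and 503 to 923 in WT. The 5 floor plate markers summed to 241 and 192 in DKO against 244 to 893 in WT, and the 6 mesenchyme markers to 3.6 and 2.37 against 5.12 to 21.6. With limma-trend, 0 of 5 tested floor plate and 0 of 3 tested mesenchyme markers were called. In both lists 0 had an unadjusted p below 0.05, and the mesenchyme levels are near those of a few reads. Of 5 tested sensory neuron markers Runx1 was called lower (1.88 and 4.04 against 6.87 to 14.6), and of 6 motoneuron markers Slc18a3, the vesicular acetylcholine transporter (1409.7 and 1265 against 1658 to 2720). Their part in the member differences was not tested, and in sorted bulk samples fewer cells of a type cannot be told apart from less RNA per cell.

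The second comparison asks how the cadherin repertoire of motoneurons differs from that of other spinal neurons of the same age, and takes the V1, V2a and V3 libraries as 3 members of 1 class. It uses the same 6 WT libraries as the knockout comparison, so the 2 sets of values are not independent. Motoneurons were sorted by Hb9::gfp and interneurons by Cre-driven tdTomato, so cell class and reporter cannot be told apart. The spread within the interneuron class includes differences between its cell types. Of 29 members tested, 9 were higher in motoneurons, 5 were lower and 15 did not pass. The 9 were the type II cadherins Cdh6, Cdh7, Cdh9, Cdh20 and Cdh22, together with Cdh13, Pcdh1, Pcdh7 and Pcdh10, from 2.07-fold (Pcdh1, Cdh22) to 9.08-fold (Cdh9) by the ratio of means. The 5 lower were the type I cadherins Cdh3 and Cdh4 with Cdh23, Cdh24 and Pcdh19. Over 16486 genes tested, 17.7% were higher, 15.2% lower and 32.9% either. The median log2 difference was 0.24 over members and -0.04 over all genes. Groups did not overlap for 11 members, and for 33.1% of all genes.

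Among type I cadherins, 2 of 4 tested members were lower in motoneurons. Cdh2 did not separate the classes: it was 1425 in V1, 1724 in V2a and 1661 in V3, all inside the WT range of 1348 to 1943 (log2 difference -0.02, SE 0.12, adjusted p = 0.929). Cdh4 (chr2:179442423-179899377) was 251, 233 and 309.9 in V1, V2a and V3, against 105 to 129 in WT motoneurons with a median of 114. Every interneuron library lay above every motoneuron library (log2 difference -1.17, SE 0.13, adjusted p = 0.000136). P-cadherin, Cdh3 (chr8:106510852-106556911), was 78.8 in V1 and 23.7 in V3 but 1.62 in V2a. In WT motoneurons it ran from 0 to 0.655, at most about 4.33 reads (log2 difference -3.89, SE 0.83, adjusted p = 0.00554). The call rests on V1 and V3, since the V2a level is near that of 3 reads. Cdh15 was 1.59 in V1, 8.4 in V2a and 20.6 in V3 beside a WT median of 5.55 (adjusted p = 0.847), and E-cadherin, Cdh1, was at most 1.3 in any embryonic library.

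**Figure D4:**
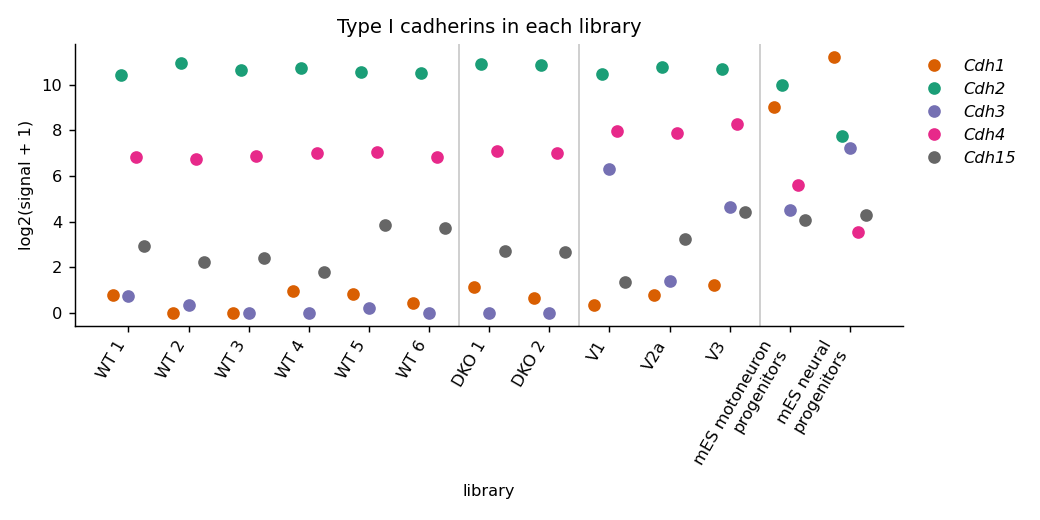
Type I cadherins as log2(signal + 1) in each of the 13 libraries, 1 point per gene and library. Cdh2 stays near its WT level in every neuron library, and Cdh4 is higher in V1, V2a and V3. Cdh3 is above its motoneuron levels in V1, V3 and both mES libraries, and highest in the neural progenitors. Cdh1 is high in the mES libraries alone.

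Type II cadherins supplied 5 of the 9 higher calls, from 12 tested members of that class, with 1 lower. Cdh6 was 191, 104 and 104 in V1, V2a and V3, against at least 664 in WT motoneurons (log2 difference 2.66, SE 0.20, adjusted p = 1.24e-05). Cdh9 (chr15:16728550-16857138) had WT levels of 136, 173 and 289.7 (lowest, median, highest) and interneuron levels of 35.8, 13.5 and 14.7 (log2 difference 3.22, SE 0.31, adjusted p = 6.67e-05). Cdh20 (chr1:104768340-104995481), at 80.3 to 124 in WT, was 20.3, 25.1 and 13.6 (log2 difference 2.32, SE 0.23, adjusted p = 6.95e-05). For these 3 genes every interneuron library lay below every motoneuron library.

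Both other higher type II members overlapped with an interneuron library. Cdh7 had WT levels of 118, 140.4 and 244, and stood at 127 in V1 but at 18.5 in V2a and 12.7 in V3 (log2 difference 2.25, SE 0.57, adjusted p = 0.013). Without V2a its adjusted p was 0.0595 and without V3 0.0521. Cdh22 was 51 in V1, 121 in V2a and 562 in V3, the last above the WT median of 467 (log2 difference 1.70, SE 0.56, adjusted p = 0.0383). Its call ended in 7 of 9 fits that left out 1 library (WT replicate 2, 3, 4, 5 or 6, V1 or V2a), with adjusted p up to 0.143, and without V1 the log2 difference was 0.93.

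Cdh24 was the lower type II member, at 598, 532 and 499.7 in the interneurons against 115 to 324 in WT (median 249, log2 difference -1.30, SE 0.30, adjusted p = 0.00796). It is also among the members that differed between WT replicates 2, 3 and 4 (115 to 208) and replicates 1, 5 and 6 (290.1 to 324), and all 3 interneuron libraries lay above both sets. Of the 6 type II members that did not pass, Cdh8 was 567 in V1 but 66.9 in V2a and 90.9 in V3, around a WT range of 249 to 357. Cdh10 was 232, 54.5 and 133 around 133 to 206, and Cdh18 was 114, 45.5 and 28.5 around 34.6 to 54. Cdh12 was highest in V2a at 91.3 beside 38.6 and 35.1, with 55.6 to 76.8 in WT. Cdh11, a cadherin also prominent in mesenchyme, reached 596 in V3, with 283 in V1, 363 in V2a and 287 to 415 in WT. The vascular cadherin Cdh5 was 0, 28.6 and 21.1, with 0 to 5.13 in WT.

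The 3 type II members with the largest ratio over all 3 interneuron libraries, Cdh9, Cdh6 and Cdh20, are shown with the 300-base window that RefSeq's promoter table gives for each (GRCm38.p6, in the direction of the gene), since all 3 were higher in motoneurons than in every interneuron library. Each window runs from 250 bases before to 50 after the start that the table uses, which in all 3 genes lies inside the outer gene bounds printed above. The windows were searched on both strands for TAATTA, a core letter sequence of homeodomain factors, and CAGCTG, an E-box, and matches are in capitals.
Cdh9: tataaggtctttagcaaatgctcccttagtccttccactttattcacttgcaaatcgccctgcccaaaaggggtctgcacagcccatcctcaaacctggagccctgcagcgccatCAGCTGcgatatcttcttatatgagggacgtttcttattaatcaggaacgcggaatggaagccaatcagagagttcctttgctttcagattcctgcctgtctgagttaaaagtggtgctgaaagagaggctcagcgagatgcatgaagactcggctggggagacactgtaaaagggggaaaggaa
Cdh6: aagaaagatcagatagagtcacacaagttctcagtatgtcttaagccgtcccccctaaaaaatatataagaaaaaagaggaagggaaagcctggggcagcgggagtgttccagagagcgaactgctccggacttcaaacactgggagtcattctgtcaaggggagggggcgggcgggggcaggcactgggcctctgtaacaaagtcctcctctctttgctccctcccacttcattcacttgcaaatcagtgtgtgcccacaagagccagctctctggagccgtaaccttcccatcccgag
Cdh20: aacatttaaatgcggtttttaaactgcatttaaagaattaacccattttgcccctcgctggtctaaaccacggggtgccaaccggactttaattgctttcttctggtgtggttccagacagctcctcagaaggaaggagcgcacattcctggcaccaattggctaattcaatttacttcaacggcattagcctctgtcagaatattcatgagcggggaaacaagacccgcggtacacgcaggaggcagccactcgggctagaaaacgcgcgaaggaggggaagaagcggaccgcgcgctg
They lie at chr15:16728665-16728964 (Cdh9, plus strand), chr15:13173626-13173925 (Cdh6, minus strand) and chr1:104768270-104768569 (Cdh20, plus strand). Cdh9 holds 1 CAGCTG, and the other windows hold neither motif. Of 32851 promoter windows of this length, 16.3% hold CAGCTG and 5.29% TAATTA, and of the 25 windows found for 22 members 3 hold CAGCTG and 1 TAATTA.

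Among the other cadherins, Cdh13 was higher in motoneurons, with WT levels of 659, 834 and 1041 against 447, 199.7 and 146 in V1, V2a and V3 (log2 difference 1.82, SE 0.28, adjusted p = 0.000989). All 3 interneuron libraries were below the motoneuron range. Cdh23, the binding partner of Pcdh15 in hair cells, was 78.7 in V1, 11.4 in V2a and 2.9 in V3, and 1.26 to 4.11 in WT motoneurons (log2 difference -2.21, SE 0.75, adjusted p = 0.0435). V1 stands apart there, and the call ended in 7 of 9 fits that left out 1 library (WT replicate 2, 3, 4, 5 or 6, V1 or V2a), with adjusted p of 0.0597 to 0.153. Pcdh15 itself was 57.9, 20.7 and 26.8 in V1, V2a and V3 (adjusted p = 0.585).

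Both δ1-protocadherins that passed were higher in motoneurons. Pcdh7 (chr5:57716145-58133236) was 587 to 1144 in WT with a median of 856, and 291, 221 and 140.3 in V1, V2a and V3 (log2 difference 2.02, SE 0.23, adjusted p = 0.00017). Pcdh1 was 135, 102 and 98.2 in the interneurons, below its WT range of 190.3 to 296 (log2 difference 1.05, SE 0.15, adjusted p = 0.000739). Pcdh9 was 470.0, 385 and 209 beside 309 to 509, and Pcdh11x 145, 19.5 and 40.9 beside 68.5 to 135, neither passing the test (adjusted p of 0.445 and 0.11).

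Of the 5 δ2-protocadherins 1 was higher and 1 lower. Pcdh10 (chr3:45378398-45434579) was 711 in V1, 299 in V2a and 145 in V3, all below the WT range of 815 to 1056 (log2 difference 1.60, SE 0.36, adjusted p = 0.00762). Pcdh19 (chrX:133582860-133689044) was 217, 113 and 132, all above the WT range of 61.8 to 86.4 (log2 difference -0.97, SE 0.21, adjusted p = 0.00693). Pcdh8 spread widely, from 764 in V1 through 235 in V2a to 84.6 in V3, around WT levels of 189 to 329.6. Pcdh17 was 397 in V2a and 161 and 159 in V1 and V3, with 125 to 181 in WT, and Pcdh18 was highest in V3 at 138, with 61.8 to 93.4 in WT.

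**Figure D5:**
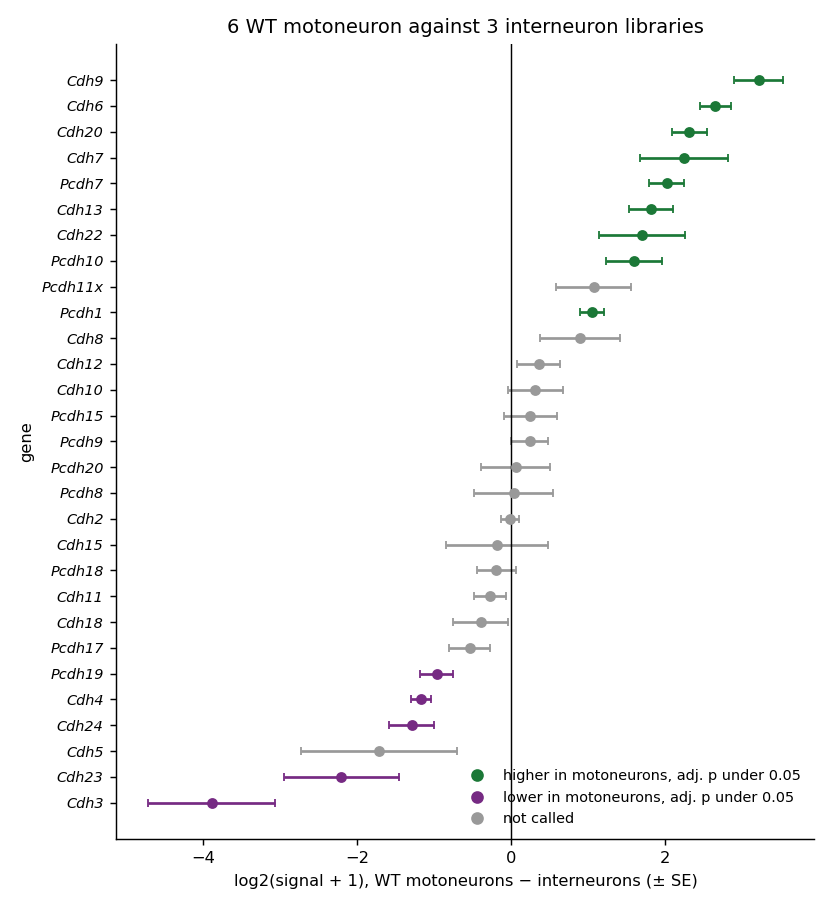
Difference in log2(signal + 1) between the 6 WT motoneuron and 3 interneuron libraries for the 29 tested members, with its SE. Green points are the 9 members called higher in motoneurons, led by Cdh9 at 3.22, purple points the 5 called lower, down to Cdh3 at -3.89, and grey points the 15 not called.

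The 3 interneuron libraries differed from each other as well as from motoneurons, and with 1 library each these differences have no replicate check. V1 lay above the WT range for 12 of the 29 tested members and below it for 12, V2a above for 8 and below for 13, and V3 above for 8 and below for 15. Over all 16486 genes the shares were 31.0% and 29.9% for V1, 30.5% and 28.0% for V2a, and 31.3% and 29.0% for V3. Of the 28 members that reached 20 in at least 1 interneuron library, V1 had the highest of the 3 interneuron levels for 18, V2a for 5 and V3 for 5. How often V1 was the highest over all genes was not computed, so this count shows nothing particular to the members. V1 was high in Cdh3, Cdh8, Cdh23 and Pcdh8, V2a in Pcdh17 and Cdh12, and V3 in Cdh11, Cdh22 and Pcdh18.

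Markers of other tissues moved with some of these levels. The 6 mesenchyme markers summed to 948 in V3 and 209 in V2a, against 13.4 in V1 and 5.12 to 21.6 in WT motoneurons, in the order of Cdh11 and Pcdh18. The 6 endothelial markers summed to 149 in V2a and 82.5 in V3, against 3.78 in V1 and 3.43 to 50.4 in WT, in the order of Cdh5. Both lists had all 6 genes above 0 in V2a and V3. Progenitor markers summed to 1241 in V3, 816 in V2a and 333 in V1, with 220.4 to 458 in WT. Their part in these levels was not tested.

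The third comparison sets the 2 mES-derived libraries, taken as members of 1 class, beside the same 6 WT motoneuron libraries. It spans culture against embryo and progenitor against neuron, which cannot be told apart. Of 30 members tested, 23 were lower and 2 higher in the mES cells, and 5 did not pass. Every δ1-protocadherin (4 of 4), 4 of 5 δ2-protocadherins and 10 of 12 tested type II cadherins were lower. Over 17134 genes tested, 30.0% were lower, 36.2% higher and 66.2% either. The median log2 difference was -4.03 over members and 0.12 over all genes. The first of these rests partly on members at a few reads in 1 of the groups, whose fitted differences depend on the pseudocount and are no bounds. Groups did not overlap for 26 members, and for 66.1% of all genes.

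The 2 that rose were type I cadherins. Cdh1 (chr8:106603350-106670247) was 509 in the motoneuron progenitors and 2373 in the neural progenitors, against 0 to 0.948 in WT motoneurons, at most about 5.01 reads (log2 difference 9.59, SE 0.55, adjusted p = 1.49e-07). Cdh3 was 21.4 and 150.3, against at most 0.655 (log2 difference 5.65, SE 0.62, adjusted p = 1.6e-05). In both genes every mES level lay far above every motoneuron level, and the size of the fitted difference depends on the pseudocount, since the motoneuron levels are a few reads or none.

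Cdh2 and Cdh4 fell. Cdh2 was 1017 in the motoneuron progenitors and 215 in the neural progenitors, both below the WT range of 1348 to 1943 (log2 difference -1.75, SE 0.43, adjusted p = 0.00451). Cdh4 was 47.6 and 10.8, below its lowest WT level of 105 (log2 difference -2.29, SE 0.41, adjusted p = 0.000579). Cdh15, at 15.6 and 18.7, lay above the WT range of 2.45 to 13.2 without passing the test (adjusted p = 0.0534).

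Many members were near the level of a few reads in the mES cells. Cdh7 and Cdh12 were listed at 0 in both libraries, and Cdh9 was 0.278 and 0.277. Pcdh10 was 0.932 and 1.11. Pcdh7 was 0.928 and 3.75, Pcdh9 1.03 in both, Cdh13 3.88 and 5.27, Cdh8 2.58 and 1.31, Pcdh17 1.87 and 0.846, and Pcdh11x 0.0938 and 0.281. Cdh18 was 0.588 and 1.17, Pcdh15 0.183 and 0.994, and Pcdh20 0.462 and 2. The 10 genes named before Cdh18 ranged from 55.6 to 1144 over the WT motoneuron libraries. Since most of these mES levels are near the floor of 3 reads, no fold is given for any of these 13 genes.

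The remaining members varied in the size of their change. Cdh6 kept 333 in the motoneuron progenitors and 88.1 in the neural progenitors (log2 difference -2.23, SE 0.38, adjusted p = 0.000439). Cdh11 was 36.6 and 21.2, Cdh10 16.1 and 8.04, Cdh22 13.7 and 3.37, Cdh20 4.99 and 1.73, Pcdh8 18.5 and 3.25, and Pcdh19 9.86 and 6.63. Pcdh1 fell least among the called members, at 99.9 and 169.9 (log2 difference -0.81, SE 0.22, adjusted p = 0.00732), and lost its call without the motoneuron progenitor library (adjusted p = 0.115). Cdh24 (139.6 and 178), Pcdh18 (115 and 17.8), Cdh5 (2.02 and 18.6) and Cdh23 (1.38 and 1.89) did not pass.

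Between the 2 mES libraries there is no replicate check, and the comparison describes these libraries. Of 25 members with a mean of at least 1 over both, 7 were at least 2-fold higher and 6 at least 2-fold lower in the motoneuron progenitors. Over 16792 genes, 8.32% were at least 2-fold higher, 16.7% lower and 25.0% either. Cdh2, Cdh4 and Cdh6 were higher in the motoneuron progenitors, by log2 differences of 2.24, 2.04 and 1.91, as were Pcdh18 (2.63), Pcdh8 (2.20), Cdh22 (1.75) and Cdh20 (1.13). Cdh1 and Cdh3 were lower, by -2.22 and -2.76, together with Cdh5, Pcdh7, Pcdh12 and Pcdh20, the last 3 at signals of at most 3.75. With a pseudocount of 10, or with a minimum mean of 10, 5 were higher and 3 lower.

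Epithelial markers moved with Cdh1. The 6 genes, among them Epcam and Krt8, summed to 2521 in the motoneuron progenitors and 15102 in the neural progenitors, against 11.5 to 17.5 in WT motoneurons. Pluripotency markers summed to 1817 and 2456, against 0 to 14.4. Progenitor markers summed to 6465 and 2280, the higher value being in the library with the higher Cdh2. Their part in the cadherin levels was not tested.

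Of the members, 11 have more than 1 transcript entry. Cdh3 differed by library in the entry used: in V1 and V3 all of its signal was on 1 entry, which held 48.6% in the motoneuron progenitors and 62.3% in the neural progenitors. Pcdh7 kept one leading transcript, with 87.1% to 90.6% of the signal in WT, 90.1% and 93.3% in DKO, and 74.7% to 79.8% in the interneurons. The leading Pcdh10 transcript held 41.7% to 69.1% in WT and 46.9% and 40.2% in DKO, so that 1 DKO share lay just below the WT range. The leading Pcdh15 entry held 54.8% and 63.4% in DKO, inside the 6.42% to 65.5% of WT. How the authors divided reads among overlapping entries is not given in the sources used here, so these shares are uncertain.

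The proteins that cadherins work with were taken from lists drawn up alongside the members. Of 10 catenins and relatives, 3 were lower in DKO, beside 7.99% of all genes tested that passed in either direction. These were β-catenin, Ctnnb1 (WT 2560 ± 212, n = 6; DKO 1946 and 1894), its relative plakoglobin, Jup (417 ± 60.7; 299 and 265), and α-E-catenin, Ctnna1 (152 ± 16.6; 103 and 98.6). Their log2 differences were -0.41, -0.55 and -0.58, with adjusted p of 0.0444, 0.0474 and 0.0347, and the calls held in 2, 2 and 3 of 8 fits that left out 1 library. Of 11 junction partners, vinculin, Vcl, was the 1 called lower (WT 232 ± 26.7; DKO 129 and 116; log2 difference -0.91, adjusted p = 0.00552), in 6 of 8 such fits. The desmosomal plaque gene Pkp2 (1 of 3 tested) fell from 33.3 ± 5.57 to 16.3 and 15.6 (adjusted p = 0.0268), and the cadherin repressor Zeb1 (1 of 4) from 338 ± 49.6 to 243 and 212 (adjusted p = 0.0456). These calls held in 6 and 3 of the 8 fits. Leaving out either DKO library ended the call of each of these 6 genes. Of 15 large cadherin-superfamily genes (Fat, Dachsous, Celsr, calsyntenin and relatives) limma-trend called 0, with 4 at an unadjusted p below 0.05, and of 7 shedding proteases 0, with 2.

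Against interneurons, the catenin list held 1 higher and 2 lower of 10, beside 32.9% of all genes tested that passed in either direction. Jup was higher in motoneurons (417 ± 60.7 against 124, 209 and 146 in V1, V2a and V3, adjusted p = 0.000275). The p120 catenin gene Ctnnd1 and its neural relative Ctnnd2 were lower, with log2 differences of -0.43 and -0.45, in 9 and 5 of 9 fits that left out 1 library. Of the junction partners 3 of 11 were lower, led by the nectin gene Pvrl1 (209 ± 25.7 against 617, 473 and 648, adjusted p = 5.99e-05). Its call held in 9 of 9 such fits, while those of the others, Mllt4 and Lima1, held in 2 and 1. Among 14 large superfamily genes, 3 were higher and 4 lower. The calsyntenin Clstn2 was higher (1210 ± 221 against 249, 285 and 158, adjusted p = 2.71e-05), and Fat4 was lower (81.6 ± 22.1 against 269.7, 183 and 189, adjusted p = 0.00147). Pkp2 was the 1 desmosomal gene of 4 called, higher in motoneurons. Of 7 shedding proteases Psen2 was called higher and Adam9 lower, each in 1 of 9 fits that left out 1 library, and of 6 repressors limma-trend called 0, with 4 at an unadjusted p below 0.05.

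In the mES cells all 10 catenins passed, 5 higher and 5 lower, beside 66.2% of all genes tested that passed in either direction. The neural α-catenin Ctnna2 was 11.9 and 6.2 against 1982 ± 254 in WT motoneurons, while the epithelial form Ctnna1 was 2244 and 2990 against 152 ± 16.6, with adjusted p of 1.32e-09 and 9.93e-09. Of 11 junction partners 9 were higher and 2 lower, of 5 tested desmosomal genes 5 were higher, and of 15 large superfamily genes 2 were higher and 10 lower. Desmoplakin, Dsp, was 212 and 346 against 0.603 ± 0.62. Of 7 shedding proteases 4 were higher, and of 7 repressors 4 were higher and 1 lower, with Snai1 at 241 and 79.7 against 6.58 ± 3.27.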

How the data were processed

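Polyadenylated messenger RNA was sequenced after oligo-dT selection with an unstranded kit, per the labels' protocols, so reads of overlapping antisense genes cannot be told apart. The authors deposited a signal per gene and per transcript (31702 entries) on RefSeq models, per the file headers. DESeq and bedtools, and the builds mm9 and mm10, appear in the submitters' processing notes with no role. For alignment and counting, the program is not given in the sources used here. Across libraries, the 75th percentile of the deposited signal was 227.5 to 233.7 in every library and totals were 6.24e+06 to 9.88e+06, so it was neither a count nor a share of a fixed total. When signals were multiplied by length, 79.2% to 80.8% of low values came within 0.1 of whole multiples of a constant of that library (20% by chance), which gave the approximate depths. These cover counting error only.

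Tests used limma-trend (limma 3.58.1, R 4.3.3) on log2(signal + 1) for genes with a mean of at least 1 over the libraries compared, two-sided, with Benjamini-Hochberg adjustment over all genes and a threshold of 0.05. The scale understates changes of low genes. Of the forms allowed by the design, that for normalized values applied. All 3 comparisons share the WT libraries and are not set against each other. The largest correlation between libraries was 0.986. Simulated data held 200 changed genes. Changes of 1 and 2 log2 units were recovered in 70% and 93% of cases for the knockout design (16186 genes, 3 false calls). The shares were 82% and 97% for the interneuron design (16194 genes, 11 false) and 71% and 97% for the mES design (16195 genes, 5 false). Every simulated library was drawn around the WT means with the WT spread, and changes were planted only in genes well above the floor. The interneuron and mES classes each join different cell types, so these shares do not measure recovery there.

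The members and lists were chosen with earlier results of these data known. Members called in a tested comparison with a group mean of at least 20 and all type I cadherins were described by name, and up to 3 called genes per partner list. Accessions matched GENCODE M21 for 22284 of 23523 entries, 19233 with a 3′ UTR. Alternatives varied the pseudocount (0.1, 10), the filter, scaling, test, table and libraries. One marker gene and its summed list are not reported here.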

Additional observations from a re-analysis of the deposited data

Results flagged for a closer look

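Among 28 members with a mean of at least 1 in the WT motoneurons, 3 had 1 library far from the other 5 by Dixon's criterion, and chance alone marks about 1 in 20. All 3 were the highest value and came from WT replicate 2. Cdh10 was 206.0 there and 133 to 157 in the others. Cdh11 was 415.4 there, against 287 to 332. Pcdh20, a low-level protocadherin, was 13.31, against 7.02 to 9.06. None of the 3 was called between DKO and WT or between motoneurons and interneurons.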

How the results depend on the processing

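The count of 4 members called between DKO and WT was 9 with array quality weights and 8 with WT replicates 2, 3 and 4 alone, and 0 to 5 when 1 library was left out. It was 0 without either DKO library, where 8 and 6 members had an unadjusted p below 0.05. With the replicate number as a block it was 0, with 11 at an unadjusted p below 0.05. Whether the same number marks a pairing cannot be told. Same-numbered deviations correlated at -0.056 and -0.01, but the deviations of 2 DKO libraries from their mean mirror each other, so this check cannot decide it. The interneuron count of 14 was 20 with array quality weights (13 higher, 7 lower), 9 with WT replicates 1, 5 and 6 alone and 12 to 15 without 1 library. The mES count of 25 was 25 to 26 without 1 WT library. Past 2-fold between the mES libraries, 13 became 8 with a pseudocount of 10 and 8 with a minimum mean of 10. No member changed sign and call in any setting. Over all genes, DKO calls were 523 higher and 776 lower, 1588 and 2143 with array quality weights, 1282 and 1170 with WT replicates 2, 3 and 4, 985 and 1330 with replicates 1, 5 and 6, 27 and 70 or 29 and 112 without a DKO library, and 120 and 94 with the block. Interneuron calls were 2921 and 2498, 4517 and 4576 with array quality weights, and 1983 and 1553 with WT replicates 1, 5 and 6. The cause of these moves was not tested, beyond the smaller number of libraries. Calls held in every setting for 0 of 4 DKO, 9 of 14 interneuron and 23 of 25 mES members. The low depth of DKO replicate 1 limits members near a signal of 3.94.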
